A study of Mus musculus with 6 samples.

Results

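The ErbB receptors and the ligands that bind them were followed in inguinal white adipose tissue (iWAT) of cold-acclimated mice. The set was fixed by name and holds 10 genes, namely the receptors Egfr, Erbb2, Erbb3 and Erbb4, the neuregulins Nrg1, Nrg2 and Nrg4, and the EGF-like ligands Hbegf, Btc and Areg. Of these, 9 were among the 16538 genes with deposited values, and Nrg1 was not analysed here. A mean of at least 10 normalized counts was required for testing, and 7 members passed it, 4 ligands (Nrg4, Nrg2, Hbegf and Btc) and 3 receptors (Egfr, Erbb2 and Erbb3). Erbb4 and Areg did not.

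Bulk RNA-Seq was performed on 6 iWAT samples, 3 labelled wt and 3 labelled NRG4 AKO, each made from the RNA of 2 mice of 1 genotype. The series records give 10 days of housing at 8°C for all of the mice. The study's text gives a longer acclimation for its cold experiment, and the length could not be settled here. The study describes the AKO mice as carrying floxed Nrg4 alleles with Cre driven by the Adiponectin promoter, which removes the gene in adipocytes and leaves it in the other cells of the depot, and it describes their controls as floxed littermates without Cre. Age and sex of these mice are not given in the sources used here. The samples held 17570335 to 18373707 reads on listed genes. Each pool counted as 1 replicate, so p-values measure the spread between pools of mice.

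ErbB receptors are receptor tyrosine kinases that pair up when a ligand binds. EGFR and ERBB4 bind ligand and signal through their own kinase, ERBB2 has no known ligand and acts as a partner, and ERBB3 binds neuregulins but has little kinase activity of its own. NRG4 is made as a membrane-bound precursor with a single EGF-like domain, binds ERBB4 and, in partnership with it, signals through other family members, and is known as a factor secreted by brown and beige fat. HBEGF and BTC bind both EGFR and ERBB4, AREG binds EGFR, and NRG2 binds ERBB3 and ERBB4.

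The Nrg4 gene lies on the minus strand of GRCm38 at chr9:55220222-55326844 and has 13 annotated transcripts in GENCODE. Its principal coding transcript has 8 exons and 1927 bases, of which 345 are coding and 82.1% are untranslated. The last exon alone holds 1186 bases, or 61.5% of that transcript. The study's Nrg4 reporter allele carries its cassette between exons 3 and 5. The exon flanked by loxP sites in the AKO mice is not given in the sources used here. Exon 4 of the principal transcript, at chr9:55242061-55242207, is shown to make plain how small a coding exon of this gene is beside the whole. It has 147 bases, all coding and a multiple of 3 in length, which is 42.6% of the coding sequence but only 7.63% of the transcript. It is written 5′ to 3′ on the coding strand from the GRCm38 genome, with the 4 in-frame cysteine codons in capitals. The first pair of these encodes the last cysteines of the EGF-like domain, which is held in shape by cysteine bridges.
Nrg4 exon 4: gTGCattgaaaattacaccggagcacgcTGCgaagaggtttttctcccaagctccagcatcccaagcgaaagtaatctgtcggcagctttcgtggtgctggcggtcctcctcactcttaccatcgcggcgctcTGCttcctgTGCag

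The targeted gene was examined first. Nrg4 had 3128, 3102 and 3092 normalized counts in control samples 1 to 3, and 2577, 2627 and 2691 in AKO samples 1 to 3. All AKO samples were below all controls, but reads on Nrg4 were abundant in both groups. The mean was 3108 ± 18.3 (SD, n = 3) in controls and 2632 ± 57.3 (SD, n = 3) in AKO iWAT, a difference of -15.3%. On the log2(value + 1) scale the difference was -0.24 (SE 0.05, 95% interval -0.36 to -0.12), with an unadjusted p of 0.00204 and an adjusted p of 0.298 by limma. It therefore did not pass the threshold of 0.05 after adjustment over the 13855 genes tested. The adjusted p was 0.372 with edgeR and 0.0682 with DESeq2 on the recovered reads, and ranged from 0.0682 to 0.632 over the settings run. An exact 2-sided permutation test gave p = 0.1, the smallest that 3 against 3 samples can give. The control samples differed from each other by less than counting error alone would give, since a Poisson SD at this level is 56.6 counts.

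Values summed over a whole gene cannot check the deletion of 1 exon, because a transcript that lacks it would still be counted. The counts for Nrg4 thus say how many reads fell on the gene and not how many came from intact mRNA. The gene also shares 368 exonic bases with Fbxo22, an F-box gene on the opposite strand, or 6.06% of all Nrg4 exonic bases. Whether strand was used in counting is not given in the sources used here. Fbxo22 had 958, 765 and 728 normalized counts in controls and 911, 823 and 863 in AKO samples, and the groups overlapped (limma adjusted p = 0.853).

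Markers of beige adipocytes moved in the same direction as Nrg4 between the groups. The summed level of 10 beige markers, among them Ucp1, the uncoupling protein of thermogenic fat, and Cidea, a lipid droplet protein, was 34244, 47903 and 32986 normalized counts in controls against 15866, 15932 and 19070 in AKO samples. No beige marker was at 0 in any sample, 8 of the 10 had AKO values that all lay below the control values, beside 8.31% of all genes tested, and 1 passed the adjusted threshold (Elovl3, a fatty acid elongase, limma adjusted p = 0.0350). Within the controls the orders differed, as 8 of the 10 beige markers were highest in control 2, whereas Nrg4 was nearly level across all controls. The summed level of 10 general adipocyte markers ran from 963788 to 989747 in controls and from 778358 to 928376 in AKO samples, without overlap. Car3 and Fabp4, which led the sum, each overlapped between groups. Of the 10 genes, 2 were lower in every AKO sample, beside 8.31% of all genes tested. The median log2 difference was -0.12, and 0 had an unadjusted limma p under 0.05. In bulk tissue, fewer cells of a type and less RNA per cell cannot be told apart. The part of either marker list in the Nrg4 values was not tested.

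**Figure D1:**
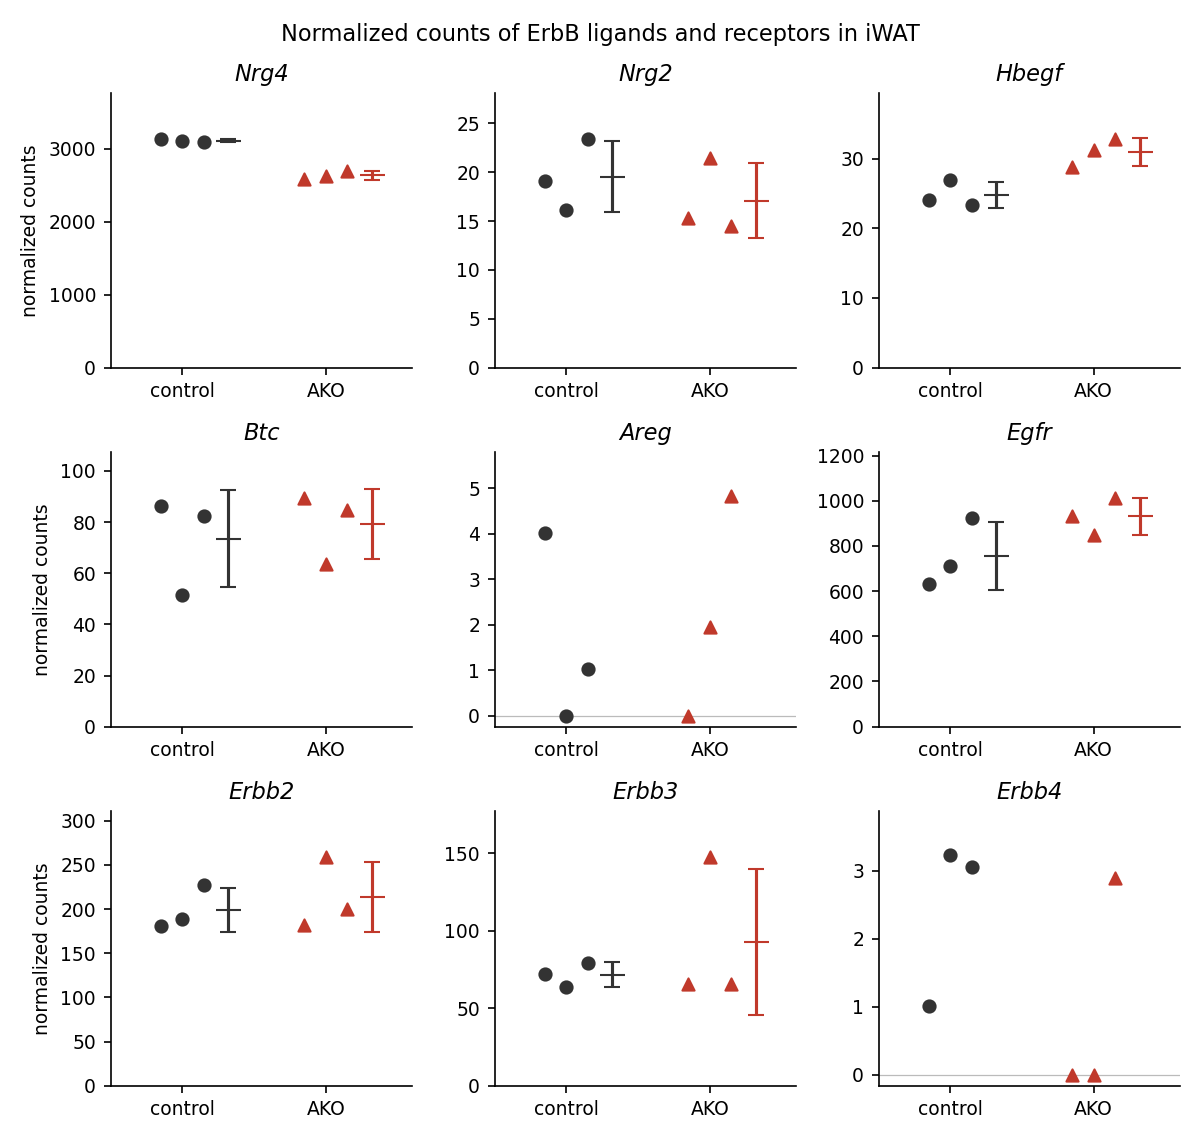
Normalized counts (vertical axes, each starting at 0 or just below it) of the 9 listed members in each iWAT sample, with control samples as black circles and AKO samples as red triangles in the order 1 to 3, and the mean ± SD of 3 samples beside them (none for Areg and Erbb4, which had too few reads). The groups stand apart for Nrg4, from 3092 to 3128 against 2577 to 2691, and for Hbegf, from 23.4 to 26.9 against 28.8 to 32.8, and overlap for the other members.

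The remaining ligands were far less abundant. Hbegf, which encodes heparin-binding EGF, had 24.1, 26.9 and 23.4 normalized counts in controls and 28.8, 31.2 and 32.8 in AKO samples. The AKO samples were all higher, the pattern opposite to that of Nrg4. The means were 24.8 ± 1.85 and 30.9 ± 2.0 (SD, n = 3 each), and the log2 difference of 0.31 (SE 0.21, 95% interval -0.18 to 0.80) did not pass the test (limma adjusted p = 0.717). Here too the SDs were under the Poisson SDs of 5.06 and 5.47 counts, so a spread this narrow at this depth cannot be taken as the spread between mice. Hbegf lies on GRCm38 chromosome 18 from 36504927 to 36515805.

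Btc, which encodes betacellulin, had 86.3, 51.6 and 82.3 normalized counts in controls and 89.3, 63.5 and 84.8 in AKO samples. Sample 2 was the lowest of each group, and the groups overlapped. The log2 difference was 0.13 (SE 0.23, 95% interval -0.41 to 0.67, limma adjusted p = 0.921), and it turned to -0.10 when control 2 was left out. Nrg2, the other neuregulin with listed values, had 19.1, 16.1 and 23.4 normalized counts in controls and 15.4, 21.5 and 14.5 in AKO samples. These values overlapped, with a log2 difference of -0.19 (SE 0.30, 95% interval -0.87 to 0.50, limma adjusted p = 0.904). The difference ran from -0.35 to -0.055 when each sample was left out in turn. The intervals of both ligands allow a difference of over 0.4 on the log2 scale in either direction.

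Areg, which encodes amphiregulin, was close to the limit of detection. It had 4, 0 and 1 reads in controls and 0, 2 and 5 in AKO samples. The sum of 5 reads in controls (exact 95% Poisson interval 1.62 to 11.7) and 7 in AKO samples (2.81 to 14.4) showed no difference detectable at this depth. In a sample with 0 reads, up to 3 reads would be compatible with the count. These intervals and limits cover counting error only.

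Egfr was the most abundant receptor. It had 633, 712 and 925 normalized counts in controls and 931, 849 and 1011 in AKO samples. Controls 1 and 2 were the lowest of all samples, while control 3 fell among the AKO values. The means were 757 ± 151 and 931 ± 81.0 (SD, n = 3 each), a difference of 23.0%, with a log2 difference of 0.31 (SE 0.14, 95% interval -0.01 to 0.63). The unadjusted p was 0.0540 and the adjusted p 0.555 by limma. The log2 difference ran from 0.19 to 0.47 when each sample was left out in turn.

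Markers of progenitors and fibroblasts, cells in which Egfr is known to be expressed, followed a similar order over the samples. Their summed level, with Pdgfra, Dcn and Col1a1 among the 10 genes, was 69663, 83260 and 98520 normalized counts in controls and 111101, 82643 and 101777 in AKO samples. Control 1 was the lowest for 7 of the 10 markers as it was for Egfr, 3 of the 10 were higher in every AKO sample, beside 6.14% of all genes tested, and none was at 0. Macrophage markers summed to 10595, 12010 and 14990 in controls and 17696, 13033 and 17930 in AKO samples. Over the samples these sums had the same order as Egfr, which the progenitor sums did not fully keep. Of the 8 macrophage markers, 7 were lowest in control 1. The ranges of both lists overlapped between groups, and their part in the Egfr values was not tested.

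Erbb2 had 181, 189 and 228 normalized counts in controls and 182, 259 and 201 in AKO samples. The 2 groups overlapped, with AKO 2 the highest. The log2 difference was 0.09 (SE 0.15, 95% interval -0.26 to 0.45, limma adjusted p = 0.908), and without AKO 2 it was -0.05. The 3 samples with the most Erbb2 (AKO 2, control 3 and AKO 3) were also the 3 with the highest sums of epithelial markers, at 3213, 2299 and 1226 normalized counts. Control 1, with a sum of 1099 close to that of AKO 3, had the lowest Erbb2, at 181. The lowest epithelial sum, 168 in control 2, went with 189 normalized counts of Erbb2. The part of epithelial RNA in the Erbb2 values was not tested.

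Erbb3 had 72.3, 63.4 and 79.3 normalized counts in controls and 65.3, 147 and 65.6 in AKO samples. A single sample, AKO 2, stood apart, and the other AKO samples were within the range of the controls. The log2 difference of 0.26 (SE 0.31, 95% interval -0.45 to 0.98, limma adjusted p = 0.855) rested on that sample and was -0.12 without it. AKO 2 was also the sample with the most epithelial RNA. The summed level of 14 listed epithelial markers, including Epcam, Krt8 and Krt18, was 1099, 168 and 2299 normalized counts in controls and 429, 3213 and 1226 in AKO samples, and 11 of the 14 were highest in AKO 2. In control 2, 13 of the 14 were at their lowest and 6 of them (Epcam, Krt8, Krt5, Krt14, Krt7 and Cldn4) were at 0. Erbb3 was at 63.4 normalized counts there, its lowest value, beside 65.3 and 65.6 in AKO 1 and AKO 3. Schwann cell markers, the other cell type in which Erbb3 is well known, summed to 15358, 17662 and 15829 in controls and 18802, 15481 and 17506 in AKO samples, with AKO 2 among the lowest. The part of epithelial RNA in the high Erbb3 value was not tested.

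**Figure D2:**
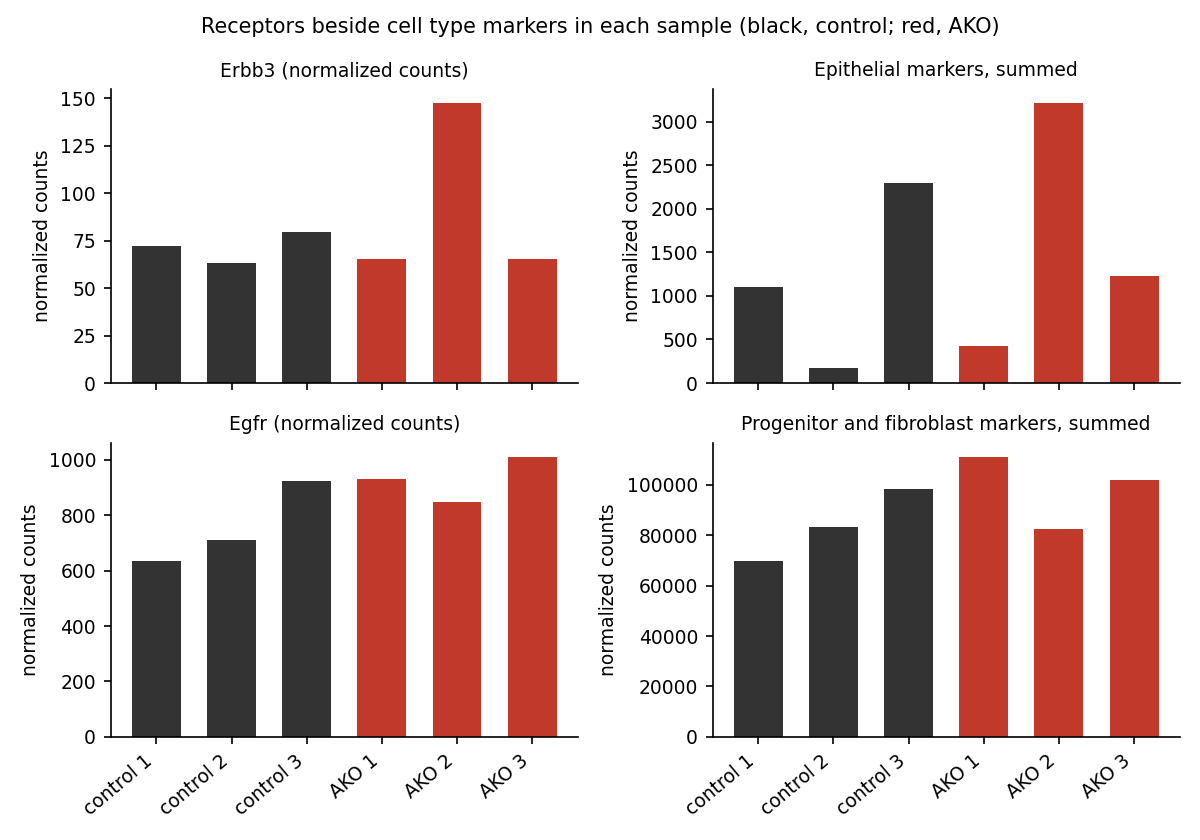
Bars give normalized counts (vertical axes, from 0) of Erbb3 and Egfr in each of the 6 samples on the left, and the summed normalized counts of epithelial markers and of progenitor and fibroblast markers on the right, with controls in black and AKO in red. Erbb3 and the epithelial sum both peak in AKO 2, at 147 and 3213, and Egfr and the progenitor sum are both lowest in control 1, at 633 and 69663. The macrophage sum, not plotted, was also lowest in control 1, at 10595.

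Erbb4, the receptor through which NRG4 is known to act, was barely detected in this depot. It had 1, 3 and 3 reads in controls and 0, 0 and 3 in AKO samples. The 10 reads over all samples had an exact 95% Poisson interval of 4.80 to 18.4 reads. Controls held 7 reads (interval 2.81 to 14.4) and AKO samples 3 (0.619 to 8.77), so no difference between the groups was detectable at this depth. The low reads show that Erbb4 mRNA is scarce in whole iWAT RNA, and do not say in how many cells, or in which, it is present.

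Across all 7 tested members, 0 passed the adjusted threshold of 0.05 by limma, where 0.0144% of all genes tested did (2 of 13855). None passed under any of the 16 alternative settings either, including edgeR and DESeq2, the latter of which called 0.998% of 14923 genes. At an unadjusted limma p under 0.05 there was 1 member (Nrg4), beside 9.1% of all genes, and 2 had groups that did not overlap (Nrg4 and Hbegf), beside 14.5% of all genes. The log2 difference was positive for 5 members and negative for 2, with a median of 0.13 against 0.0070 over all genes tested. Both counts are within about 1 gene of what these shares would give for 7 genes. Without AKO 2, 4 members did not overlap (Nrg4, Hbegf, Egfr and Nrg2), beside 25.2% of all genes with that sample left out.

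**Figure D3:**
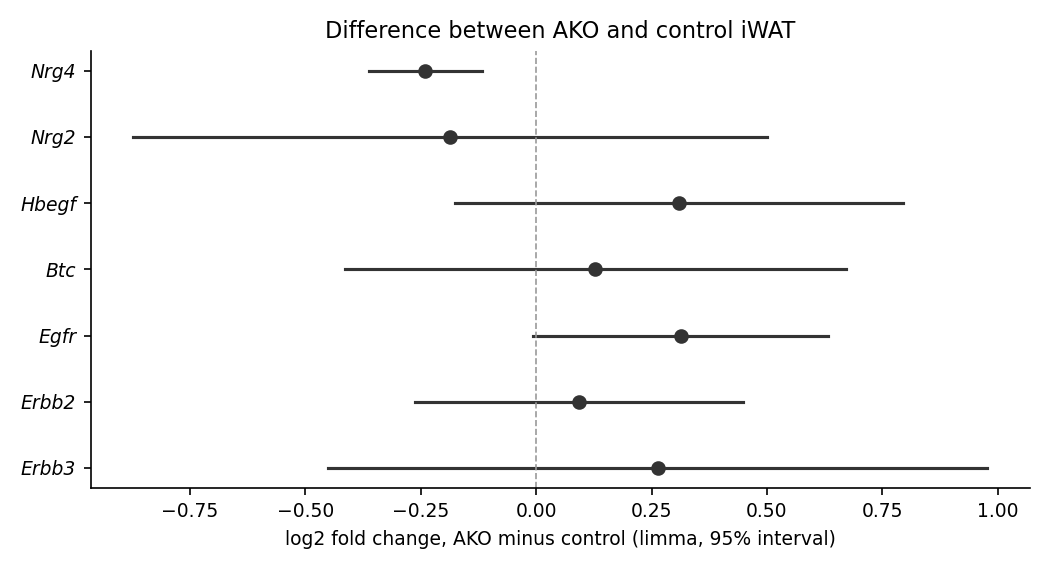
Points give the log2 difference between AKO and control iWAT for the 7 tested members and lines the 95% interval from limma on 3 samples a group (horizontal axis, log2 scale, dashed line at 0). The interval of Nrg4, -0.36 to -0.12, is the narrowest and lies wholly below 0, and the intervals of the other members include 0.

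Levels were then compared between members after dividing normalized counts by the length of all annotated exons. On this scale Nrg4 had 472 ± 43.4 normalized counts per kb (SD over all 6 samples), more than any other member in every sample, and stood at the 91.4th percentile of listed genes. Egfr followed at 74.5 ± 12.7 per kb and Erbb2 at 39.6 ± 5.92, and the ranges of these 3 genes did not overlap. Nrg4 was thus 6.23 to 9.21 times as high per kb as Egfr in controls and 4.96 to 5.77 times in AKO samples. Btc at 16.9 ± 3.36 and Erbb3 at 13.7 ± 5.40 per kb overlapped in range, so their order is not settled. Nrg2 at 5.83 ± 1.14 and Hbegf at 5.76 ± 0.784 likewise overlapped. Areg at 1.62 ± 1.69 and Erbb4 at 0.137 ± 0.125 per kb closed the order and overlapped, with Erbb4 at the 0.262th percentile.

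The choice of length bears on this order. With the longest transcript in place of all exons, Nrg4 came to 1370 per kb and Hbegf to 9.64, above Nrg2 at 5.99, and the order of the other members was kept. The ratio of Nrg4 to Egfr then ran from 13.0 to 24.1 over the 6 samples, so its size depends on which exons are counted as length. Of the ligands outside the set, Tgfa, which encodes a ligand of EGFR, had 5.93 normalized counts per kb of all exons, Egf had 3.48 and Epgn, the gene of epigen, had 0.747. All of these ligands were below the range of Nrg4 by far.

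**Figure D4:**
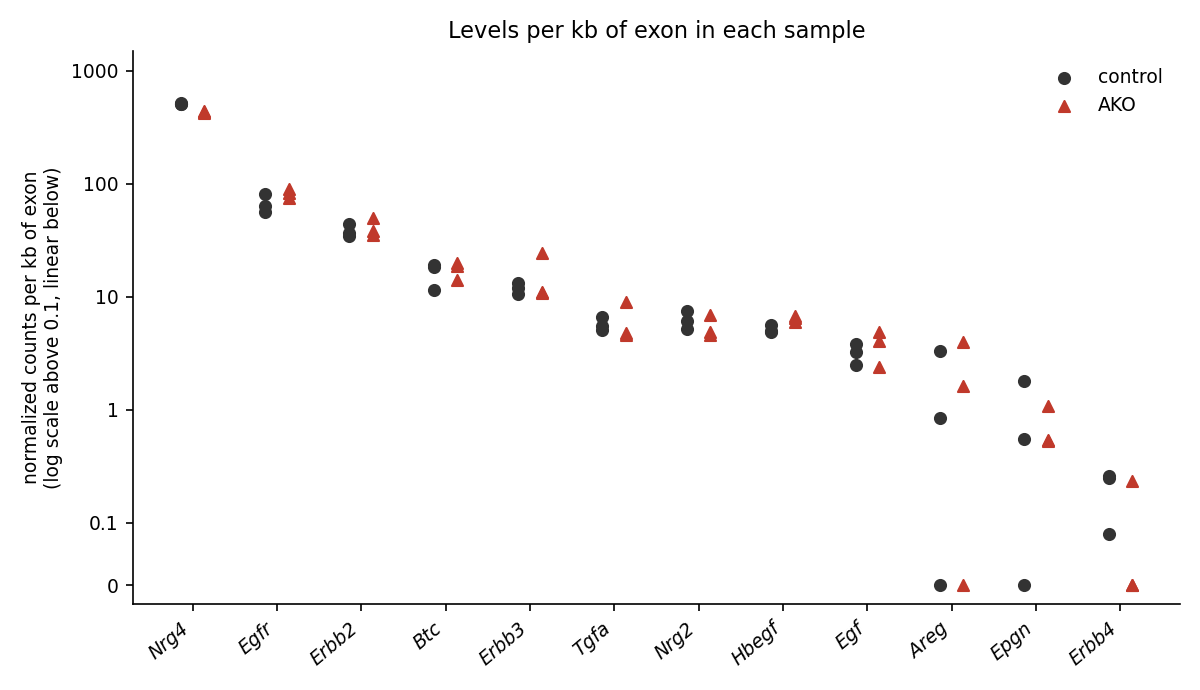
Normalized counts per kb of annotated exon (vertical axis, log scale above 0.1 and linear below) of the 9 listed members and of Tgfa, Egf and Epgn, 1 point per sample, with controls as black circles and AKO samples as red triangles. Nrg4 lies between 424 and 515 in all samples, Egfr between 55.9 and 89.3, and Erbb4 at or below 0.261.

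The receptors were also expressed as shares of their summed level per kb. Egfr made up 56.8% ± 2.21 in controls and 59.6% ± 8.06 in AKO samples (SD, n = 3 each), Erbb2 32.8% ± 1.16 and 29.4% ± 3.34, and Erbb3 10.3% ± 1.25 and 10.9% ± 4.79. The highest Erbb3 share, 16.4%, was that of AKO 2, which had the lowest Egfr share, 50.3%. Erbb4 contributed 0.165% ± 0.0799 in controls and 0.0562% ± 0.0973 in AKO samples. The ranges of the groups overlapped for all 4 receptors.

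The other genes of the pathway were taken from 8 lists covering further ligands, the proteases that release them, adaptors, negative regulators, the RAS-MAPK and PI3K-AKT chains, nuclear effectors and immediate target genes. Of 101 named genes, 99 were listed and 97 tested, and 0 of the 97 passed the adjusted threshold by limma. There were 5 with an unadjusted p under 0.05, or 5.15% beside 9.1% of all genes. Among them 3 were higher in AKO samples and 2 lower. Groups did not overlap for 9 of the 97, or 9.28% beside 14.5% of all genes, 7 of them higher and 2 lower. The median log2 difference of the 97 was 0.04.

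Among the 10 genes for sheddases and ligand release, Adam12, a metalloprotease known to cleave HBEGF, had 1091, 1182 and 1043 normalized counts in controls and 925, 732 and 853 in AKO samples. It was lower in every AKO sample, with a log2 difference of -0.41 (SE 0.10) and a limma adjusted p of 0.315. DESeq2 on the recovered reads gave an adjusted p of 0.0474, the only 1 of the 97 pathway genes it called. It called 0.998% of all genes, so 1 of 97 is near the share of any genes. Of the 21 negative regulators, Ptprj, a receptor tyrosine phosphatase that acts on EGFR, had 212, 220 and 272 normalized counts in controls and 325, 339 and 352 in AKO samples. All AKO samples were higher, with a log2 difference of 0.53 (SE 0.11), an adjusted p of 0.289 by limma and one of 0.0617 by DESeq2.

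Of the 14 genes of the PI3K-AKT chain, Mtor, the kinase of the TOR complexes, had 1940, 2435 and 2039 normalized counts in controls and 1693, 1862 and 1763 in AKO samples (log2 difference -0.26, limma adjusted p = 0.497). All AKO samples were below all controls, and the gene did not pass the test. Of the 12 tested immediate targets, Etv5, an ETS factor induced by MAPK signalling, had 60.2, 67.7 and 83.4 normalized counts in controls and 98.9, 92.7 and 83.9 in AKO samples (log2 difference 0.39, limma adjusted p = 0.539). The related Etv4, named after its values were seen as the largest log2 difference of the lists at 0.69, had overlapping groups and a limma adjusted p of 0.758. No gene of the 19 adaptors and scaffolds, the 7 STAT and nuclear effectors or the further ligands had an unadjusted limma p under 0.05.

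**Figure D5:**
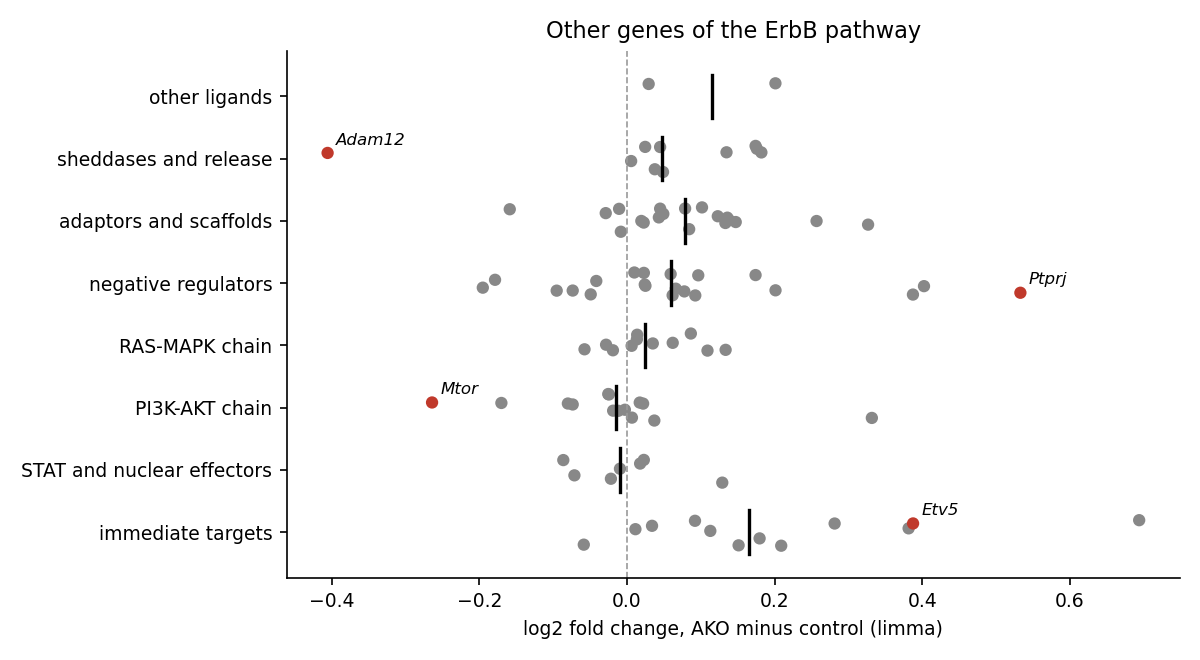
Each point is 1 of 96 tested pathway genes, placed by its log2 difference between AKO and control iWAT (horizontal axis, limma, dashed line at 0) in the row of its list, with a black bar at the median of the list and red points for the 4 genes shown with an unadjusted p under 0.05. List medians lie between -0.02 and 0.17, and Adam12 at -0.41 and Etv4 at 0.69 are the outermost genes.

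Genes with the profile nearest to that of a member were found by the root mean square difference of log2 values, each centred on its own mean over the 6 samples. Nearest to Nrg4 were Hdac1, a histone deacetylase, at 0.0234, Pgap2, a factor in GPI anchor maturation, at 0.0281, and Lzic at 0.0294, where the median gene was at 0.181. Nearest to Egfr were Srpx at 0.0407, Clec4a1 at 0.0481 and Glt8d2 at 0.0487 (median gene 0.277). Nearest to Erbb2 were Ndufaf5 at 0.0426, Wbp5 at 0.0512 and Robo1, a receptor for SLIT guidance proteins, at 0.0519 (median gene 0.238). With 6 samples these are descriptions of likeness.

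The sums of the remaining marker lists overlapped between groups. Endothelial markers summed to between 18753 and 22232 normalized counts over all samples. Skeletal muscle markers varied most, at 703, 29782 and 16602 in controls and 21947, 82400 and 126470 in AKO samples. The log2 difference was positive for 13 of the 16 muscle markers and negative for 3, and 0 passed the adjusted threshold. Lymphocyte markers were high in control 1 (931) and AKO 2 (1275) and between 180 and 199 in the other samples.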

How the data were processed

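The authors aligned reads with STAR to GRCm38.p6, counted genes of GENCODE M25 with featureCounts and ran DESeq2. The deposited signal values are gene counts divided by DESeq2 size factors; the authors' fold changes, p-values and adjusted p-values in the same table were not used, and 0 sample columns were left unmapped. All values were whole multiples of 1 read (100.0% within 0.1 read), so reads were recovered. The main test was limma (3.58.1, with trend, R 4.3.3) on log2(value + 1) for genes with a mean of at least 10, with Benjamini-Hochberg adjustment over all genes tested. Since the values were not raw counts, edgeR (4.0.16), DESeq2 (1.42.0) and limma with quality weights on recovered reads were alternatives, beside other pseudocounts, filters, scalings, a replicate block and leaving out each sample. The fits were tested on simulated data. Exon lengths and coordinates came from GENCODE M21 on GRCm38, an earlier release than the one the authors used, and covered 99.1% of listed genes. No pair of replicates looked like a library deposited again (chi-square over degrees of freedom 9.86 to 20.1 within groups). The members, gene lists and tests were chosen with earlier results of these data known. Named genes were all members, genes overlapping them, pathway genes that were called or were the most changed at an unadjusted p under 0.05, the 3 nearest profiles, and examples of each marker list. A gene of the pathway lists is not reported here by name or in the plot of the lists, and list counts include it. Samples were grouped by the labels' genotype.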

Additional observations from a re-analysis of the deposited data

How the results depend on the processing

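No member was called under any setting. When each sample was left out in turn, the log2 difference of Nrg4 stayed between -0.26 and -0.22, that of Btc ran from -0.10 to 0.28, that of Erbb2 from -0.051 to 0.20 and that of Erbb3 from -0.12 to 0.46, so the last 3 changed direction. Of the 97 pathway genes, 1 was called with DESeq2 on recovered reads and 0 by limma, beside 0.998% and 0.0144% of all genes. Without AKO replicate 2, 4 members had groups that did not overlap, in place of 2, where the share of all genes was 25.2% in place of 14.5%. Same-numbered samples had correlations of deviations of 0.14, -0.35 and 0.24. These cannot decide whether same-numbered samples share more than a number. With a replicate block, 0 members were called and the adjusted p of Nrg4 was 0.224 by limma. Scaling with edgeR's RLE was chosen after seeing the data. Depth limits Areg and Erbb4, which had 12 and 10 reads in all.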
